A study of Mus musculus with 2 samples.

Results

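The leucine-rich repeat receptors Lgr4, Lgr5 and Lgr6 and the leucine-rich repeat gene Lrig1 were described over the cells of the developing hair follicle (HF). These 4 genes were chosen by symbol from the 32285 genes listed for both libraries, where each was listed once. The cells were sorted on postnatal day 1 (P1) from back skin, from the dermal fraction left after dispase had separated the epidermis, as tdTomato-positive and DAPI-negative cells. In 1 library, labelled PADI4 WT, the reporter was turned on by K14-Cre. The other library, labelled PADI4 cKO, came from K14-Cre mice with Padi4 fl/fl alleles and the same reporter, so the deletion was driven by the keratin 14 promoter and meant for the epithelium. The protocol in the labels names K14-Cre Padi4 fl/fl mice for both libraries, and the Padi4 alleles of the PADI4 WT mice are not given further. The labels place both libraries in batch 1 and do not tell how many animals, or of which sex, went into either.

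LGR4, LGR5 and LGR6 are receptors for R-spondins, secreted proteins that raise Wnt signaling. A cell with an LGR and bound R-spondin removes ZNRF3 and RNF43, ubiquitin ligases that otherwise take Wnt receptors off the membrane. LRIG1 is a membrane protein that dampens EGFR and related receptors. In mouse skin Lgr5 is known as a marker of stem cells in the lower follicle, Lgr6 and Lrig1 are known from the upper follicle and the isthmus, and Lgr4 is known as the more widely used receptor.

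The measurements are counts of unique molecular identifiers (UMIs), each standing for 1 captured 3′ mRNA end. With 1 library per genotype there is no replicate check, no test was made between genotypes, and the intervals given below are 95% intervals that cover counting error alone. After filtering, 7993 epithelial cells of the PADI4 WT library and 7357 from the library labelled PADI4 cKO remained, with medians of 14670 and 16208 UMIs over all cells kept, and 17 barcodes of at least 2000 UMIs occurred in both libraries. Padi4, the targeted gene, gave 98 and 92 UMIs in the epithelial cells (log2 ratio −0.12, interval −0.54 to 0.31), so its 3′ counts did not set the libraries apart. Xist without Y-linked transcripts was found in 26.0% of the PADI4 WT cells and in 98.4% of the cells of the other library, and sex and genotype are therefore partly confounded. Scores for doublets passed the threshold in 4.08% and 4.44% of the cells, and free RNA made up at most 8.42% and 7.53% of the epithelial UMIs.

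Of the 4 genes, Lgr4 (ENSMUSG00000050199) lies at chr2:109917647-110014257 on the plus strand of GRCm38, and its longest coding transcript has 18 exons. Lgr5 (ENSMUSG00000020140) spans chr10:115450311-115587780 on the minus strand and also has 18 exons. Lgr6 (ENSMUSG00000042793) spans chr1:134983301-135105276 on the minus strand, again with 18 exons. Lrig1 (ENSMUSG00000030029) spans chr6:94604529-94700158 on the minus strand and has 19 exons. The opposite-strand gene A930009A15Rik overlaps Lgr5, and Slc25a26 overlaps the 3′ end of Lrig1. Of the stretches of 31 bases in the last 500 bases of the member transcripts, 0% occurred in another listed gene.

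The promoters in RefSeq (GRCm38.p6) are shown for the 3 members with an entry, which Lgr5 lacks, as the 250 bases before the start. A link between these sequences and the levels was not tested. Capitals mark CCAAT boxes (CCAAT) and GC boxes (GGGCGG) found on either strand.
Lgr4 (chr2:109917397-109917646, plus strand): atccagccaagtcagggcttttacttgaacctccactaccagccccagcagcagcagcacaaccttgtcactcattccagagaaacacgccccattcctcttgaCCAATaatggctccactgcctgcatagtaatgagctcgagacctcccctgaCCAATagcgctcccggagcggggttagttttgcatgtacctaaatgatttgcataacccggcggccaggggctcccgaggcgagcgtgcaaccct
Lgr6 (chr1:135105277-135105526, minus strand): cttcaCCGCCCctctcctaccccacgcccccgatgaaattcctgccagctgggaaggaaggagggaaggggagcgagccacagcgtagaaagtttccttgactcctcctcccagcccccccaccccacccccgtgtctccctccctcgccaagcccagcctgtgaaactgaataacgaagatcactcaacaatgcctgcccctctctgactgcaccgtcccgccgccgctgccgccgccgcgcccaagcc
Lrig1 (chr6:94700146-94700395, minus strand): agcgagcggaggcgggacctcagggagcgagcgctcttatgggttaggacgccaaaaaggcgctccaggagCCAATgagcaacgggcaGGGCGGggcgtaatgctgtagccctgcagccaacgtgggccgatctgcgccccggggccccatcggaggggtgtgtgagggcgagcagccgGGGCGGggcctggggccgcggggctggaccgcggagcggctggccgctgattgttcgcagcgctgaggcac

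The Lgr4 stretch held 2 CCAAT boxes and no GC box, that of Lgr6 held 1 GC box, and that of Lrig1 held 1 CCAAT box and 2 GC boxes. Over 32851 promoters of this length, 33.8% held a CCAAT box and 32.7% a GC box. The G and C content was 55.6% for Lgr4, 65.2% for Lgr6 and 71.6% for Lrig1, against a median of 52.4%, and the number of CG pairs was 10, 16 and 26 against a median of 6. The TCF/LEF core letters CTTTGA or CTTTGT, held by 27.6% of promoters, and the GLI letters TGGGTGGTC, held by 0.225%, were in none of the 3 stretches on either strand.

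Cells were clustered without the 4 genes, and clusters were named only from marker lists of the follicle. Of 21 epithelial clusters, 18 held at least 50 cells in each library and were compared. The ORS-like clusters, resembling the outer root sheath (ORS), were 1 (led by Lmo3 and Adamts19), 17 (Dio2, Tafa1), 12 (Kcnk10, Ebf1), 2 (Aldh3a1, Lpl) and 3 (Cacna1e, Crabp2). Clusters 2 and 3 also carried markers of the upper follicle (uHF), such as Plet1, Cst6 and Gata6 in both. Cluster 2 further carried the sebaceous gland markers Pparg, Cidea and Mgst1, and cluster 3 carried Pparg. Clusters 0 (Mme, Npr3) and 14 (Sp5, Frem1) resembled the lower proximal cup (LPC), and clusters 7 (Gfra3, Kit) and 8 (Nr4a3, Shh) resembled the germinative layer (GL). Cluster 10 (Krt73) was like the inner root sheath (IRS), cluster 9 (Hes2, Dsg4) like the cortex (Cx) and cluster 20 like the sebaceous gland (SG). Clusters 11 (Cdh9, Spon1, Krt8), 18 (Olfml2b, Tagln), 13 (Plcxd3, Slit3), 6 (Prr5l, Mt4), 15 (Dpp10, Gpnmb) and 19 (Krt75) stayed unnamed. An index of LPC and GL markers over uHF and interfollicular epidermis (IFE) markers, as a log2 ratio that holds no member, ran over the compared clusters of the PADI4 WT library from −2.49 in cluster 20 and −1.05 in cluster 3 to 4.76 in cluster 8.

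Levels are given as CPM, the UMIs of a gene scaled to 1000000 UMIs of all genes in the same cells. Over all epithelial cells, Lgr4 was found in most cells and the other members in part of them. At least 1 Lgr4 UMI was present in 87.5% of the PADI4 WT cells and 91.9% of those in the library labelled PADI4 cKO. The shares were 48.8% and 54.5% for Lgr5, 52.9% and 60.1% for Lgr6, and 63.2% and 63.5% for Lrig1. These shares depend on depth, and with each cell thinned to 2000 UMIs they fell to 42.4% and 46.0% for Lgr4, 27.6% and 29.6% for Lgr5, 24.2% and 27.5% for Lgr6, and 37.8% and 36.5% for Lrig1. Cells with Lgr5 held 8.32 and 9.03 Lgr5 UMIs on average, so detection mostly did not rest on a lone molecule.

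**Figure D1:**
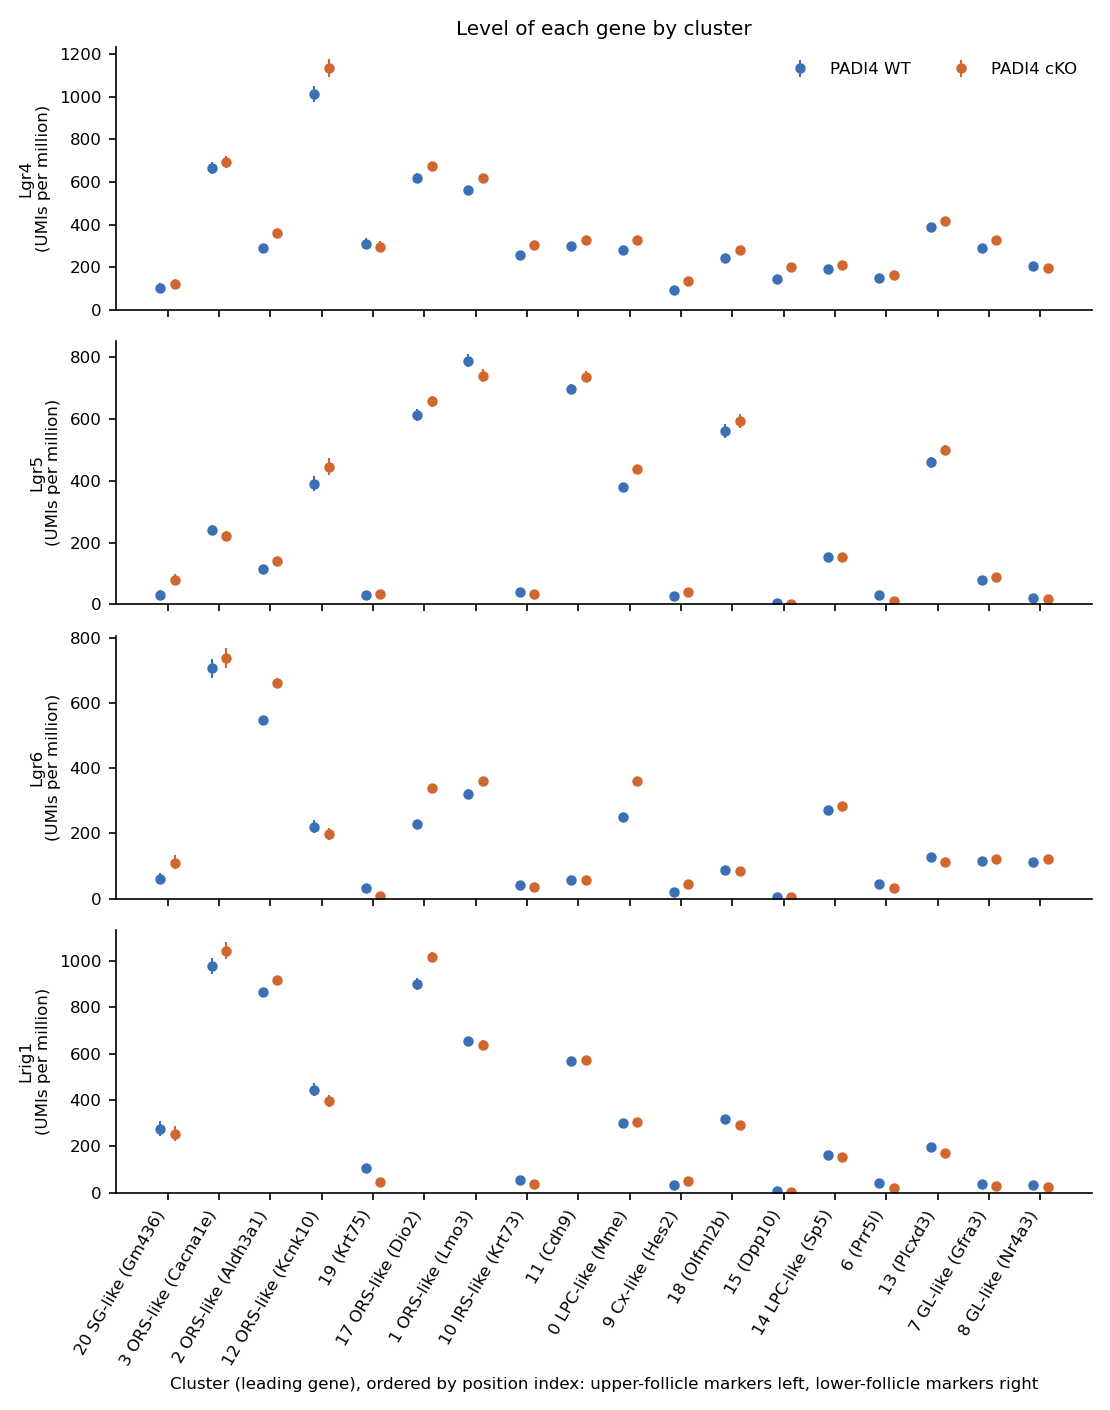
Level of each member in the 18 compared clusters in CPM on a linear axis from 0, with the clusters ordered by the position index and 95% counting intervals as bars, for both libraries. Lgr4 was present in every cluster, whereas Lgr5, Lgr6 and Lrig1 fell to between 5.02 and 8.37 CPM in cluster 15 of the PADI4 WT library.

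Lgr4 was the most evenly spread member. In the PADI4 WT library its level was highest in ORS-like cluster 12, at 1012 CPM (interval 973 to 1052), followed by clusters 3 (667 CPM), 17 (620.2 CPM) and 1 (564 CPM), all ORS-like. The library labelled PADI4 cKO had the same clusters on top, with 1136 CPM in cluster 12 (1094 to 1178), 695 in cluster 3, 675 in cluster 17 and 620.2 in cluster 1. Lower down, the level was 389.8 and 416 CPM in cluster 13, 291 and 327 in GL-like cluster 7, 281 and 329 in LPC-like cluster 0 and 257 and 305 in IRS-like cluster 10. Even at the lower end, Cx-like cluster 9 held 95.4 and 138 CPM and SG-like cluster 20 held 103 and 121 CPM, with Lgr4 UMIs in 57.2% and 59.3% of their PADI4 WT cells. The highest level was 10.6-fold the lowest in the PADI4 WT library and 9.39-fold in the other. At least 50% of the cells carried Lgr4 in 18 of 18 clusters in each library. Of the 17 pairs of neighbors in the order of levels, 9 and 8 had overlapping intervals, among them clusters 3 and 17.

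Lgr5, the marker of lower follicle stem cells, was high in ORS-like clusters 1 and 17 and in the unnamed clusters 11 and 18. Of the compared clusters it was lowest in cluster 15. Cluster 11 carried the ORS markers Sox9, Tbx1 and Barx2 with an index of 1.44 in the PADI4 WT library, and cluster 18 carried markers of several lists (Plet1, Klk10, Krt15, Tbx1, Lgals1) with an index of 3.51. The Lgr5 level in the PADI4 WT library was highest in ORS-like cluster 1 (788 CPM, interval 766 to 809.8), then in cluster 11 (698 CPM), cluster 17 (612 CPM) and cluster 18 (559.5 CPM). In the library labelled PADI4 cKO, clusters 1 (739.6 CPM, 719 to 760.1) and 11 (736 CPM) could not be ordered, followed by cluster 17 (656 CPM) and cluster 18 (592 CPM). Between 94.3% and 99.6% of the cells of clusters 1, 11 and 18 carried Lgr5 in either library, but only 76.8% and 85.4% of the cells of cluster 17.

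Lgr5 remained high in cluster 13 (459 and 499.8 CPM), ORS-like cluster 12 (390.3 and 446 CPM) and LPC-like cluster 0 (379 and 436 CPM). It was lower in cluster 3 (240.3 and 221 CPM), LPC-like cluster 14 (153 and 153 CPM), cluster 2 (114 and 139.8 CPM) and GL-like cluster 7 (77.8 and 87.7 CPM). From LPC-like cluster 0 to LPC-like cluster 14 the share of cells with Lgr5 dropped as well, from 87.5% to 47.8% in the PADI4 WT library. In cluster 15, picked out after its values were seen, Lgr5 was at 5.02 and 1.53 CPM in 3.24% and 2.34% of the cells. The median depth there was 13722.5 and 14854 UMIs, close to that of all cells. The 5 clusters with the highest Lgr5 level in CPM held 69.1% and 65.7% of its UMIs, and 6 and 7 of the 17 neighbor pairs overlapped.

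In clusters 9 and 6 most of the Lgr5 UMIs sat in cells scored as doublets. In Cx-like cluster 9, 7.25% and 11.5% of the cells were so scored, and they held 89.4% and 94.3% of the Lgr5 UMIs. Without them the Lgr5 level fell from 25.7 and 40.1 to 3.09 and 2.80 CPM. In cluster 6 the Lgr5 level was 29.4 and 12.5 CPM with these cells and 5.21 and 2.38 CPM without them. In IRS-like cluster 10 the share in such cells was 51.2% and 60.6%, with 22.3 and 15.3 CPM left. It was 49.1% and 0% in cluster 19, and 6.45% and 60% in SG-like cluster 20. In clusters 1 and 11, at most 6.85% of the Lgr5 UMIs lay in such cells. LPC-like cluster 14 was in between, with 48.4% and 44.5% of its Lgr5 UMIs in the 12.3% and 16.5% of cells scored as doublets, and 94.1 and 109 CPM left without them.

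Lgr6 peaked in the ORS-like clusters that carry uHF markers. Its level was 706 CPM (interval 677 to 735) in cluster 3 and 548 CPM in cluster 2 of the PADI4 WT library, and 738 CPM (708 to 768) and 661 CPM in the library labelled PADI4 cKO. Between 92.0% and 95.4% of the cells of these clusters held Lgr6. When the cells were clustered anew without doublets, the PADI4 WT level of the cluster matched to cluster 3 was 420.3 CPM, whereas it was 708 CPM with the clusters kept and the doublets removed.

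A lower tier of Lgr6 was formed by ORS-like cluster 1 (322 and 360.0 CPM), LPC-like clusters 14 (271 and 284 CPM) and 0 (250.4 and 359 CPM), and ORS-like cluster 17 (229 and 339 CPM). Both LPC-like clusters held it in most cells, with 84.7% and 87.1% in cluster 14 and 81.3% and 92.1% in cluster 0. The GL-like clusters had 116 and 121 CPM (cluster 7) and 112 and 122 CPM (cluster 8), in 52.9% to 60.1% of their cells. Cluster 11, among the highest for Lgr5, had 58.2 and 58.5 CPM of Lgr6, and cluster 18 had 88.4 and 85.9 CPM. In cluster 15 the Lgr6 level was 5.35 and 4.09 CPM in 5.56% and 4.69% of the cells.

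Lrig1 was high wherever either Lgr5 or Lgr6 was high in the ORS-like cells and low in the GL-like cells. In the PADI4 WT library its level was 976 CPM (942 to 1010.0) in cluster 3, 899.7 CPM in cluster 17, 867 CPM in cluster 2, 653 CPM in cluster 1, 569 CPM in cluster 11 and 445 CPM in cluster 12. The library labelled PADI4 cKO gave 1042 CPM (1007 to 1078), 1014, 917, 637, 572 and 396 CPM in the same order, with clusters 3 and 17 overlapping. Between 96.0% and 99.8% of the cells of clusters 1, 2, 3, 11 and 17 carried Lrig1 in either library.

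Outside these clusters, Lrig1 stood at 301 and 307 CPM in LPC-like cluster 0 and at 162 and 156 CPM in LPC-like cluster 14. SG-like cluster 20 was a further place of high level, with 276 and 253 CPM in 77.8% of the cells of each library, where the other members were at 31.9 to 121 CPM. GL-like clusters 7 and 8 held 37.0 and 33.3 CPM in the PADI4 WT library and 27.9 and 25.8 CPM in the other, although Lgr4 and Lgr6 were above 100 CPM in both. Without cells scored as doublets the Lrig1 level of cluster 8 was 24.1 and 6.02 CPM, and that of cluster 9 fell from 35.7 and 52.4 to 5.15 and 3.11 CPM. In cluster 15, 6.94% and 3.91% of the cells held Lrig1.

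Over the 18 clusters, with log2 levels taken from the same cells and the same totals per cell, the closest pair was Lgr5 and Lrig1 (Pearson r of 0.83 for PADI4 WT and 0.87 for the other library). Lgr6 and Lrig1 gave 0.78 and 0.79, Lgr4 and Lgr5 0.70 and 0.63, Lgr5 and Lgr6 0.69 and 0.69, Lgr4 and Lgr6 0.65 and 0.50, and Lgr4 and Lrig1 0.64 and 0.60. The order of the clusters was much alike in both libraries, with r between the libraries from 0.95 for Lgr6 to 0.99 for Lgr4 and Lrig1.

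The balance of Lgr5 and Lgr6 differed most between clusters 11 and 18 on the Lgr5 side and clusters 8, 2 and 3 on the Lgr6 side. The log2 ratio of Lgr5 over Lgr6 UMIs, read only across clusters since the genes may be captured unequally, was 3.58 and 3.65 in cluster 11 and 2.66 and 2.78 in cluster 18. It was −1.55 and −1.74 in cluster 3 and −2.26 and −2.24 in cluster 2. GL-like cluster 8 was lower still, at −2.39 and −2.81.

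**Figure D2:**
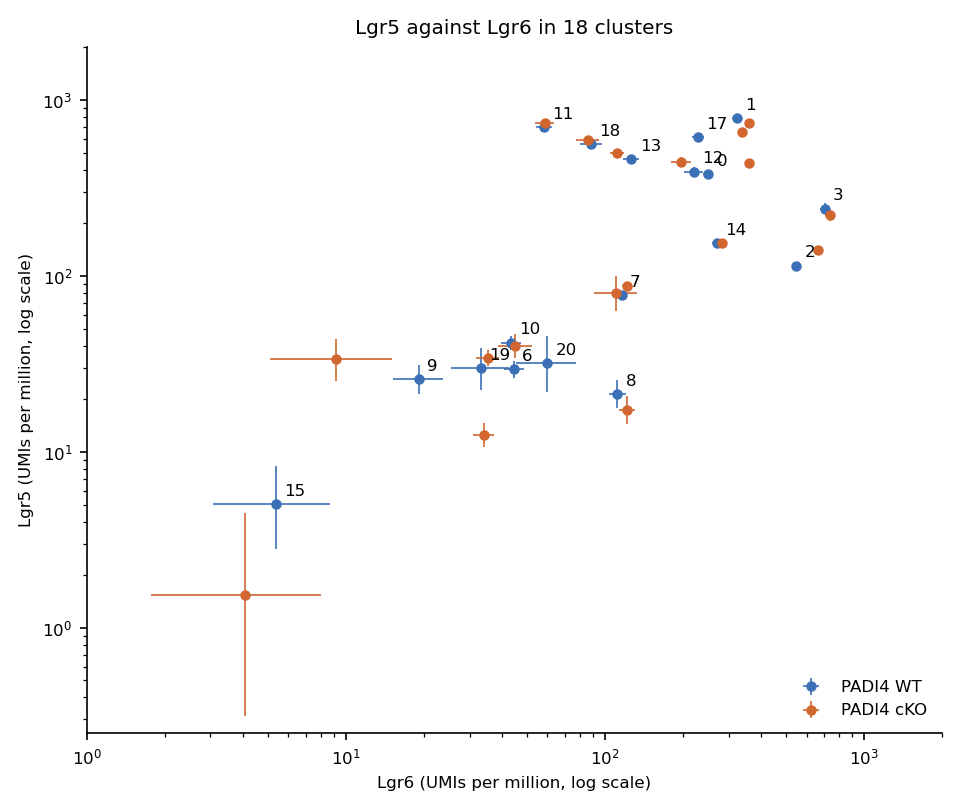
Lgr5 level against Lgr6 level in CPM, both on log axes, with 1 point per cluster and library, 95% counting intervals as bars and cluster numbers beside the PADI4 WT points. Clusters 11 and 18 lie at high Lgr5 and low Lgr6, clusters 2 and 3 at high Lgr6, and clusters 0, 1, 12 and 17 at high values of both.

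Detection in single cells differed between these clusters in the same way. In cluster 11, 65.8% of the PADI4 WT cells had Lgr5 without Lgr6, 31.3% had both and 0.90% had Lgr6 without Lgr5, and the library labelled PADI4 cKO gave 62.1%, 37.6% and 0%, where 0 of 551 cells allows up to 0.544% of cells with such UMIs, which is no limit on cells that express the genes. In cluster 2 the order was turned, with 1.13% Lgr5 without Lgr6, 29.3% both and 62.7% Lgr6 without Lgr5, against 0.83%, 33.8% and 59.8%. GL-like cluster 8 resembled cluster 2 in this respect, with 46.5% and 51.5% of cells holding Lgr6 without Lgr5 and 2.75% and 1.84% the reverse. Part of these UMIs can be background. Free RNA, at its upper bound, would give Lgr6 UMIs to 13.7% and 12.9% of the cells of cluster 11, where 32.2% and 37.6% held them. It would give Lgr5 UMIs to 15.2% and 14.2% of the cells of cluster 2, where 30.5% and 34.7% held them. In cluster 8 the bound for Lgr5 (18.01% and 18.9%) was above the observed shares (9.79% and 10.4%), so these shares cannot be told from free RNA by this bound. The bound can lie well above what free RNA gives. In cluster 15 it was 14.8% and 14.9% for Lgr5, where 3.24% and 2.34% of the cells held Lgr5. The cells with Lgr5 in cluster 8 held 3.75 and 3.32 Lgr5 UMIs on average. Cells scored as doublets held 51.7% and 63.7% of the Lgr5 UMIs of cluster 8, and the source of these UMIs was not tested.

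Of the clusters between these extremes, clusters 0, 1 and 13 carried both genes in most of their cells in each library. Both were found in 73.0% and 85.5% of the cells of LPC-like cluster 0 and in 72.3% and 76.1% of ORS-like cluster 1. In cluster 13 the shares were 67.2% and 67%. LPC-like cluster 14 was more mixed, with both in 39.2% and 44.8% of cells and Lgr6 alone of the pair in 45.5% and 42.3%. Both genes were found in fewer cells of ORS-like cluster 12 (27.6% and 35.9%) and GL-like cluster 7 (24.8% and 28.8%). In clusters 6, 9, 10, 15, 19 and 20, at most 11.1% of the cells of either library held both. The log2 ratio of Lgr5 over Lgr6 moved from 0.60 and 0.28 in cluster 0 to −0.82 and −0.89 in cluster 14.

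ORS-like cluster 17 was divided within itself. Of its PADI4 WT cells, 29.7% had Lgr5 without Lgr6, 15.8% the reverse and 47.0% both, and the other library had 20.5%, 11.2% and 64.9%. The odds of holding Lgr6 were lower in its cells with Lgr5 than in those without, with an odds ratio of 0.51 (0.31 to 0.84) in the PADI4 WT library and 0.58 (0.33 to 1.02) in the other. ORS-like cluster 12 gave 0.54 (0.32 to 0.93) and 0.73 (0.41 to 1.29). These were the only compared clusters with an interval below 1 in the PADI4 WT library, there were 0 such clusters in the other, and an interval above 1 was found in 5 and 8 clusters. Doublets were kept here. The 5 were clusters 6, 7, 9, 10 and 20, where cells scored as doublets held 83.6%, 11.6%, 89.4%, 51.2% and 6.45% of the Lgr5 UMIs. The 8 were clusters 0, 2, 6, 7, 8, 9, 10 and 14, with 2.81%, 20.5%, 81.6%, 17.6%, 63.7%, 94.3%, 60.6% and 44.5%. The part of doublets in these odds ratios was not tested.

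Within cluster 17, cells with Lgr5 and no Lgr6 (141 PADI4 WT cells and 126 of the other library) were set beside cells with Lgr6 and no Lgr5 (75 and 69). Fst, which encodes the BMP and activin antagonist follistatin, was at 24.8 CPM in the Lgr5 cells and 602 CPM in the Lgr6 cells of the PADI4 WT library, and at 27.6 and 420.4 CPM in the other (log2 ratios −4.58 and −3.91). Nfatc1, a transcription factor of bulge stem cells, was lower in the Lgr5 cells by log2 ratios of −1.81 and −1.29, and the matrix protein gene Postn by −1.85 and −1.35. Lgals1, which encodes galectin 1, was higher in the Lgr5 cells by 2.24 and 2.84. Sox9, a transcription factor of the ORS, was close, at 819 against 916 CPM and 819 against 845 CPM. The division therefore also ran through markers within the ORS list. The median depth was 10038 and 10346.5 UMIs in the Lgr5 cells and 8084 and 9852 in the Lgr6 cells. The split was not particular to cluster 17. In ORS-like cluster 12 of the PADI4 WT library (102 and 55 such cells), the ratios were −2.76 for Fst, −1.26 for Nfatc1, −0.99 for Postn and 2.13 for Lgals1. Fst had −1.15 in IRS-like cluster 10 of the PADI4 WT library, but 0.64 and −0.71 in GL-like cluster 7 of the 2 libraries.

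Within cluster 17, cycling genes followed the same division. Top2a, a topoisomerase of dividing cells, was at 349 CPM in the Lgr5 cells and 83.2 CPM in the Lgr6 cells of PADI4 WT cluster 17, and at 138 and 17.2 CPM in the other. Mki67 had log2 ratios of 1.52 and 3.02. Over the whole proliferation list (Mki67, Top2a, Cdk1, Ccnb1, Pcna, Mcm5), all cells of cluster 17 with Lgr5 had 1101 CPM against 291 CPM in those without it (log2 ratio 1.92, interval 1.74 to 2.10), and 663.5 against 117 CPM in the other library (2.49, 2.22 to 2.80). Cells with Lgr5 were deeper, at medians of 11032.5 and 7534.5 UMIs and of 12100.0 and 9460.0 UMIs. With Lgr5 called on cells thinned to 2000 UMIs, the ratios were 0.86 (0.78 to 0.95) and 0.44 (0.36 to 0.53). For Lgr6 in the same cluster, the ratios were 0.09 (0.01 to 0.17) and 0.29 (0.18 to 0.40), and turned to −0.35 and −0.57 when thinned.

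In other clusters the relation between Lgr5 and the proliferation list varied in size and sign. In cluster 3 the cells with Lgr5 were higher by 0.82 and 0.44, and by 0.71 and 0.75 when thinned. In cluster 2 they were higher by 0.66 and 0.67, and by 0.41 and 0.37 when thinned. In LPC-like cluster 0 the log2 ratio was −0.02 (−0.11 to 0.06) and 0.31 (0.21 to 0.41), and 0.07 and −0.01 when thinned. In cluster 12 it was 0.22 (−0.06 to 0.50) and 1.21, but −1.04 and −0.01 when thinned, and in LPC-like cluster 14 it was 0.18 and −0.16, and −0.06 and −0.44 when thinned. In GL-like cluster 7 it was 0.02 and 0.002, and −0.06 and −0.08 when thinned. In IRS-like cluster 10 it was −0.20 and −0.09, without a thinned value. In clusters 0, 7, 12 and 14 the direction therefore depended on the library or on the depth at which Lgr5 was called. Doublets were kept in all ratios of the proliferation list, which were not redone without them. Cells scored as doublets held 10.2% and 20.5% of the Lgr5 UMIs of cluster 2, and 0.25% and 1.14% of those of cluster 3. In cluster 2 the median depth was 17688.5 and 17027 UMIs with Lgr5, against 11120 and 10913 without it.

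**Figure D3:**
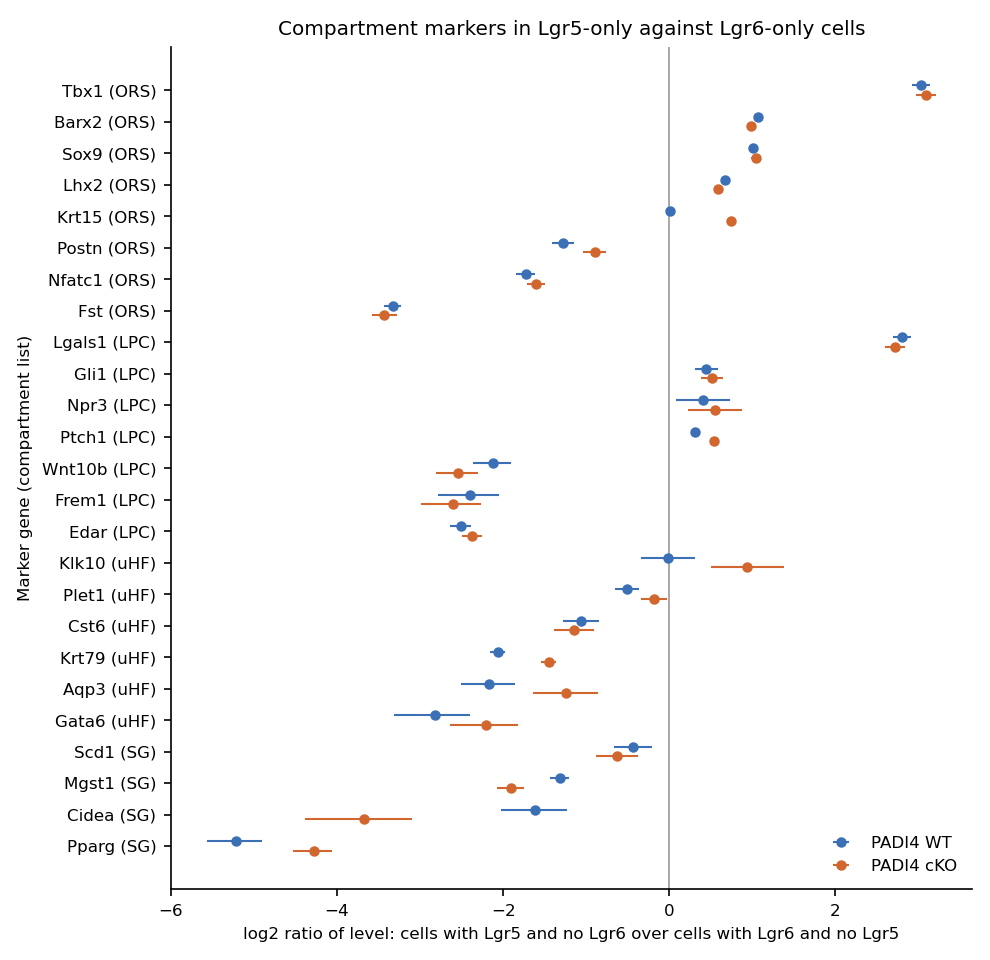
Log2 ratio of each gene of the ORS, LPC, uHF and SG lists in cells with Lgr5 and no Lgr6 over cells with Lgr6 and no Lgr5, with 95% counting intervals as bars, over all epithelial cells of each library. The SG genes and all uHF genes other than Klk10 lie below 0, whereas the ORS and LPC lists hold genes on both sides.

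Over all epithelial cells, those with Lgr5 and no Lgr6 numbered 1465 and 1125, and those with Lgr6 and no Lgr5 numbered 1795 and 1538. Their depths were close, with medians of 13143 and 13826 UMIs against 13484 and 14861.5. The marker lists follow the compartments the study named and are not independent of these cells. Of the uHF genes with enough UMIs, 5 of 6 were lower in the Lgr5 cells in both libraries and 0 were higher in both, and all 4 of the SG genes were lower. Gata6, a transcription factor of the uHF and sebaceous duct, had log2 ratios of −2.82 and −2.21, and Krt79, a keratin of the hair canal, −2.07 and −1.45. Pparg, the regulator of sebocyte differentiation, was at 3.85 CPM in the Lgr5 cells and 144 CPM in the Lgr6 cells of the PADI4 WT library, a log2 ratio of −5.21, with −4.28 in the other. It was also among the markers of ORS-like cluster 2, where 62.7% and 59.8% of the cells held Lgr6 without Lgr5.

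The ORS list was split, with 5 of 8 genes higher and 3 of 8 lower in the Lgr5 cells in both libraries, counting genes on the sign of the ratio, among them Krt15 with 0.00 and 0.74. Tbx1, a transcription factor gene of follicle stem cells, was at 240.4 CPM in the Lgr5 cells and 29.5 CPM in the Lgr6 cells (3.03), and at 235 and 27.6 CPM in the other library (3.09). Sox9 was higher by 1.01 and 1.04, and Barx2 by 1.07 and 0.98. Fst (−3.33 and −3.43), Nfatc1 (−1.73 and −1.60) and Postn (−1.28 and −0.90) were lower in the Lgr5 cells, as within cluster 17.

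The LPC list was split too, with 4 of 7 genes higher and 3 of 7 lower. The hedgehog targets Ptch1 (0.30 and 0.54) and Gli1 (0.45 and 0.52) were higher in the Lgr5 cells. The hair placode receptor gene Edar (−2.51 and −2.37), the matrix gene Frem1 (−2.40 and −2.61) and the Wnt ligand gene Wnt10b (−2.13 and −2.55) were higher in the Lgr6 cells. In the GL list 6 of 8 genes were lower and 2 higher in the Lgr5 cells, and Shh, the hedgehog ligand, had ratios of −2.73 and −2.88. The Lgr6 cells without Lgr5 thus included both cells with uHF markers and cells with markers of the lowest follicle.

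Lists were also summed in cells with and without each member. Cells with Lrig1 (5055 against 2938 without it, and 4671 against 2686) had more ORS UMIs (log2 ratios 2.53 and 2.73) and uHF UMIs (1.34 and 0.80), and fewer GL UMIs (−1.25 and −1.11), IRS UMIs (−2.20 and −2.03) and Cx UMIs (−2.85 and −2.59). Cells with Lgr5 had more ORS (0.83 and 1.27) and LPC UMIs (0.74 and 0.70), and fewer uHF (−1.19 and −1.31), IRS (−1.96 and −1.89) and Cx UMIs (−2.77 and −2.67). The sign of the uHF list thus differed between cells with Lrig1 and cells with Lgr5. Cells with Lgr6 had ORS ratios of 0.71 and 0.91 and a uHF ratio that differed in sign between libraries (0.04 and −0.50). Cells with Lgr4 had the smallest ratio for the Cx list of the 4 members, −1.87 and −2.23, and more UMIs of the proliferation list (0.40 and 0.48). Within clusters the latter depended on depth. In cluster 2 the ratio was 0.24 and 1.08, but −0.42 and −0.28 with Lgr4 called on thinned cells, and in GL-like cluster 7 of the PADI4 WT library it was 0.33 and −0.11 when thinned.

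Joint detection was measured as an odds ratio within 10 strata of UMIs per cell, since deeper cells hold UMIs of both genes more often. Every pair was above 1 in both libraries. Lgr5 and Lrig1 gave 8.83 (7.89 to 9.89) in the PADI4 WT library and 11.003 (9.77 to 12.4) in the library labelled PADI4 cKO, with Lrig1 in 85.9% and 85.7% of the cells with Lgr5 and in 41.6% and 36.9% of those without. Lgr6 and Lrig1 gave 4.58 (4.14 to 5.07) and 5.29 (4.75 to 5.90), with Lrig1 in 78.9% and 77.9% of the cells with Lgr6 and in 45.7% and 41.7% of those without. Cells with Lrig1 therefore took in most of the cells of both other genes.

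**Figure D4:**
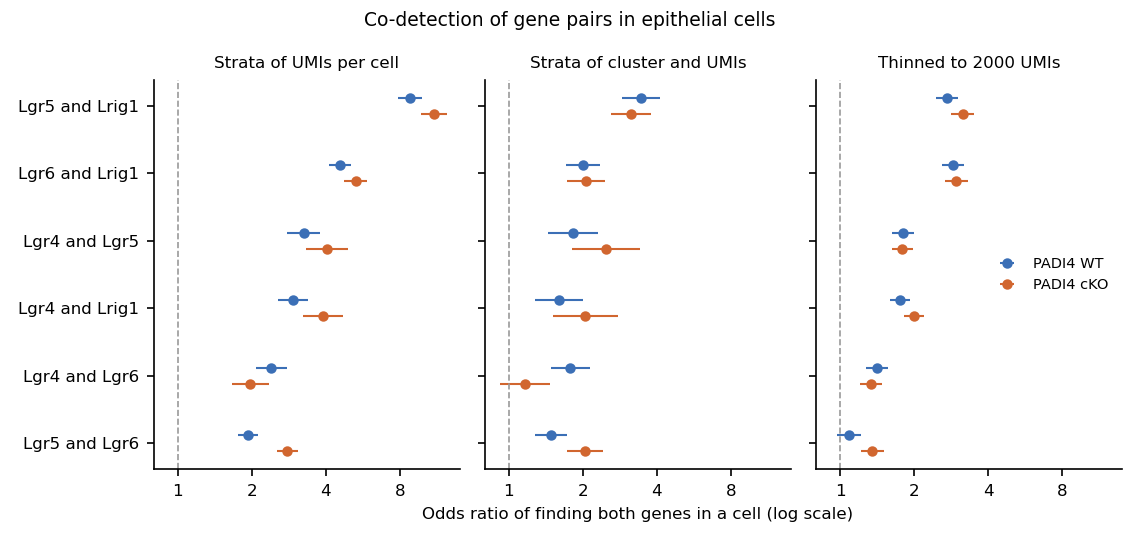
Odds ratio of joint detection for the 6 pairs of members on a log axis, with 95% counting intervals as bars and a dashed line at 1, for both libraries in 3 panels: strata of UMIs per cell, strata of cluster and UMIs, and cells thinned to 2000 UMIs. The pair of Lgr5 and Lrig1 has the highest values with strata of UMIs per cell, and the values in the other panels are smaller for every pair.

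The pairs with Lgr4 gave 3.25 (2.78 to 3.80) and 4.04 (3.32 to 4.91) with Lgr5, 2.95 (2.56 to 3.39) and 3.91 (3.25 to 4.70) with Lrig1, and 2.41 (2.08 to 2.78) and 1.98 (1.67 to 2.35) with Lgr6. Lgr5 and Lgr6 gave 1.93 (1.77 to 2.12) and 2.80 (2.54 to 3.08), with Lgr6 in 62.4% and 72.0% of the cells with Lgr5 and in 43.9% and 46.0% of those without. When every cell was thinned to 2000 UMIs this ratio was 1.09 (0.97 to 1.22) for PADI4 WT and 1.36 for the other library. Part of each ratio lay between clusters. With strata of cluster and depth together, Lgr5 and Lrig1 gave 3.46 and 3.14, Lgr6 and Lrig1 2.003 and 2.06, Lgr5 and Lgr6 1.49 and 2.04, and Lgr4 and Lgr6 1.78 and 1.17, the last with an interval that held 1. Doublets were kept in these strata, and the ratios within clusters were not redone without them.

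All 4 genes were found together in 25.9% of the PADI4 WT cells (2070 cells) and 33.3% of the cells of the other library (2451 cells), but in 2.44% and 3.48% after thinning. By cluster, the share was 68.6% and 71.6% in ORS-like cluster 1, 61.0% and 70.1% in LPC-like cluster 0, 53.7% and 54.0% in cluster 13 and 49.0% and 45.2% in cluster 3. Lgr4 alone was found in 16.7% and 16.9% of the cells and none of the 4 in 5.55% and 3.47%.

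Combinations that lacked only Lgr5 or only Lgr6 had different homes. Lgr4, Lgr6 and Lrig1 without Lgr5 made up 13.2% and 11.4% of the cells, and 49.4% and 46.0% of these cells lay in cluster 2. Lgr4, Lgr5 and Lrig1 without Lgr6 made up 13.8% and 11.9%, and 40.3% and 34.5% of these lay in cluster 11. Lgr5 with none of the other members was found in 0.44% and 0.20% of the cells.

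Between the libraries, the levels over all epithelial cells differed little. The log2 ratio of PADI4 cKO over PADI4 WT was 0.19 (0.17 to 0.21) for Lgr4, 0.13 (0.11 to 0.16) for Lgr5, 0.20 (0.18 to 0.23) for Lgr6 and −0.05 (−0.07 to −0.03) for Lrig1. Of the 4 members 0 lay past 0.5 in size, where 5.15% of the 14900 genes with at least 100 UMIs did, and the median of all genes was −0.01. Among cells with Xist and no Y-linked UMIs in both libraries (2080 and 7236 cells), the ratios were 0.29, 0.01, 0.37 and 0.07, so that of Lrig1 turned in sign and that of Lgr5 was close to 0. Within the PADI4 WT library, cells with Y-linked UMIs only over cells with Xist only gave 0.14, −0.18, 0.22 and 0.16 for the 4 genes in the same order. As a mean over clusters weighted by cells, the ratios were 0.17, 0.07, 0.21 and 0.03, and that of Lrig1 again changed sign.

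**Figure D5:**
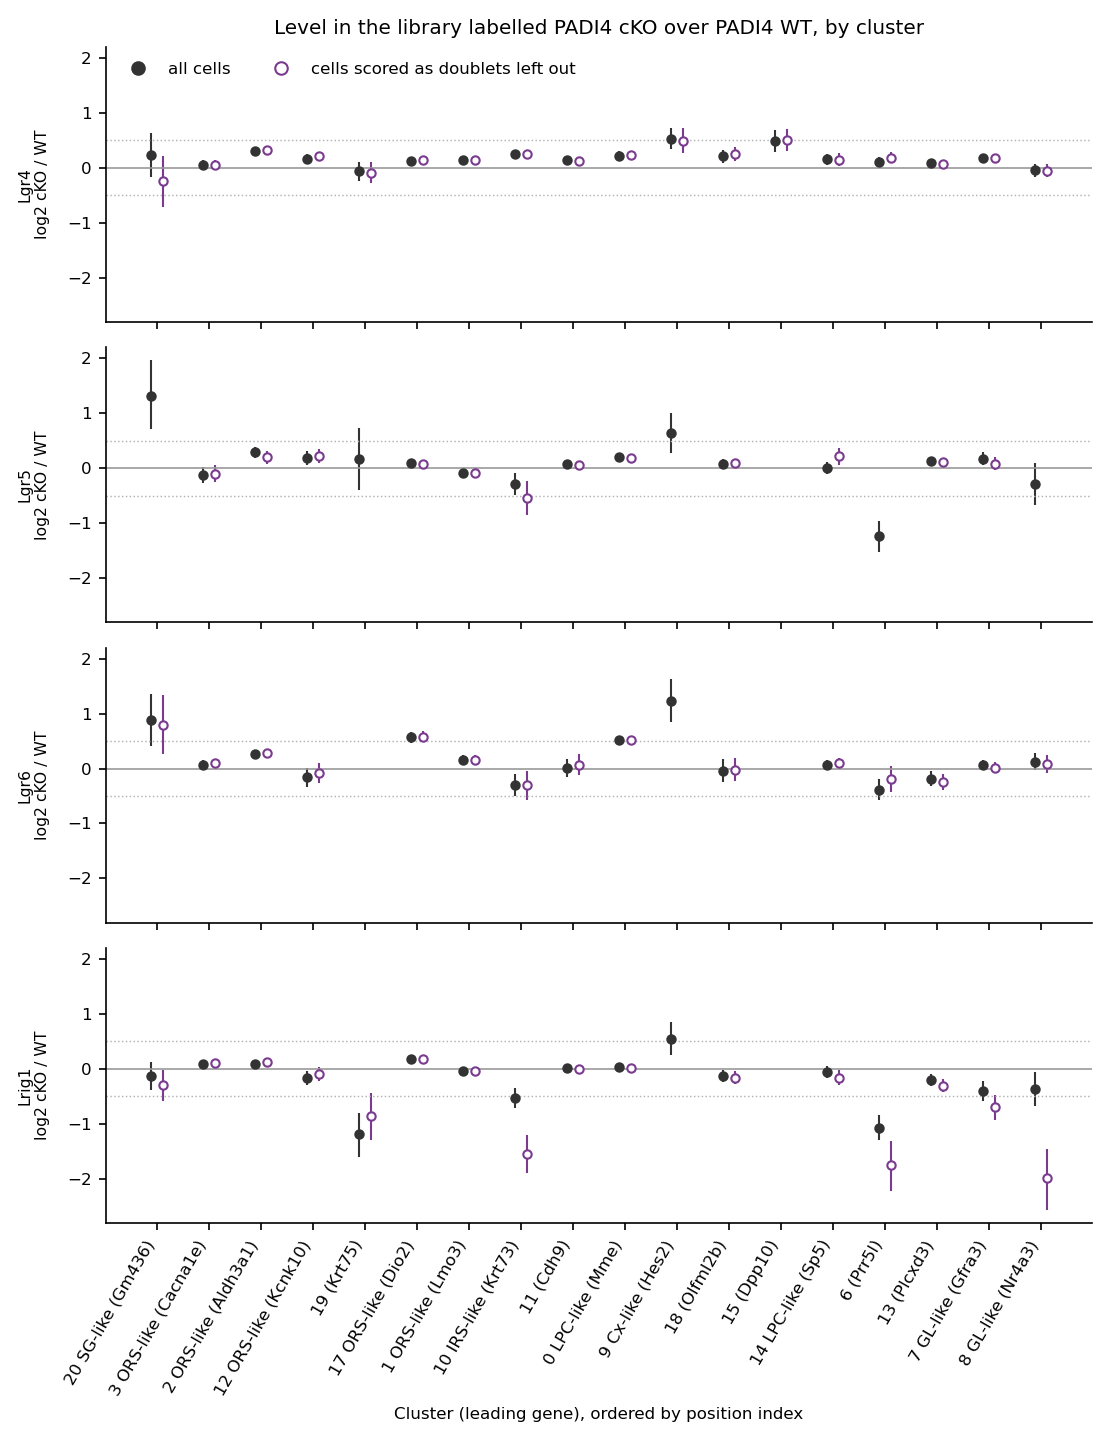
Log2 ratio of each member between the library labelled PADI4 cKO and PADI4 WT in the compared clusters with at least 100 UMIs, with 95% counting intervals as bars and dotted lines at 0.5 in size, for all cells (filled) and without cells scored as doublets (open), from 1 library per genotype. Most values lie within the lines, and the values past them lie mainly in clusters where the member is low.

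By cluster, Lgr4 was past 0.5 in 1 of 18 clusters tested, Lgr5 in 3 of 17, Lgr6 in 4 of 16 and Lrig1 in 4 of 17, counting both directions. The share of all genes tested that were past 0.5 in either direction was 4.9% in cluster 0, 6.16% in cluster 1, 6.78% in cluster 2, 6.91% in cluster 3, 3.98% in cluster 6, 3.01% in cluster 7, 2.75% in cluster 8, 4.4% in cluster 9, 2.83% in cluster 10, 4.04% in cluster 11, 6.74% in cluster 12, 3.3% in cluster 13, 4.32% in cluster 14, 5.6% in cluster 15, 5.42% in cluster 17, 3.45% in cluster 18, 7.7% in cluster 19 and 8.51% in cluster 20. Lgr4 was above 0 in 16 of 18 clusters with a median of 0.16, and Lrig1 below 0 in 11 of 17 with a median of −0.13. The medians for Lgr5 and Lgr6 were 0.10 and 0.07.

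In clusters where a member was above 200 CPM in both libraries, only Lgr6 passed 0.5. In ORS-like cluster 17 Lgr6 was at 229 CPM in the PADI4 WT library and 339 CPM in the other (0.57, interval 0.47 to 0.67), where 5.42% of all genes were past 0.5. In LPC-like cluster 0 it was at 250.4 and 359 CPM (0.52, 0.44 to 0.60), where 4.9% were. Without doublets the ratios were 0.58 and 0.52, and among Xist-only cells they were 0.48 and 0.47, both then under 0.5. Lgr5 in the same clusters had ratios of 0.10 and 0.20.

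The other values past 0.5 were in clusters 6, 9, 10, 19 and 20, where the member was mostly low or the cells were few. Lgr5 in cluster 6 had −1.23, but its UMIs without doublets were 52 and 29, under the limit of 100 together, and Xist-only cells gave 0.49. Lrig1 had −1.07 in cluster 6 and −0.53 in cluster 10. Without doublets these were −1.76 and −1.54, and among Xist-only cells 0.37 and 0.72, so their sign turned. Lrig1 in cluster 19 had −1.19, with −0.86 without doublets and −0.10 among Xist-only cells. In Cx-like cluster 9 all 4 members were past 0.5, at 0.53 for Lgr4, 0.64 for Lgr5, 1.23 for Lgr6 and 0.55 for Lrig1. There only Lgr4 kept 100 UMIs without doublets, with a ratio just under the limit, and among Xist-only cells the ratios were 0.65, 2.21, 3.06 and 2.60. For Lgr5, Lgr6 and Lrig1 the Xist-only ratios rested on 9, 6 and 9 UMIs in 79 PADI4 WT cells. Of all UMIs of these genes in cluster 9 of the other library, 94.3%, 75.6% and 95.1% lay in cells scored as doublets. In SG-like cluster 20, with 54 cells in each library, Lgr5 had 1.31 and Lgr6 0.87. The 80 Lgr5 UMIs of the library labelled PADI4 cKO sat there in 5 cells, and the Lgr5 ratio was 0.32 without doublets and 0.25 among Xist-only cells, each with under 100 UMIs. Lgr6 had 0.79 and 1.61 under these alternatives. Without doublets Lrig1 also passed 0.5 in GL-like clusters 7 (−0.70) and 8 (−1.99), against −0.41 and −0.37 with them. Xist-only cells gave −0.35 and 1.12, the value of cluster 8 with 16 UMIs in 87 PADI4 WT cells. Other ratios that passed 0.5 only without doublets were those of Lgr5 in cluster 10 (−0.54) and Lgr4 in cluster 15 (0.50). Among Xist-only cells alone, Lgr5 passed 0.5 in LPC-like cluster 14 (0.70, with 120 UMIs in 61 PADI4 WT cells) and GL-like cluster 8 (0.81, with 14 UMIs in 87 PADI4 WT cells), and Lrig1 in cluster 20 (−0.51). The Xist-only choice kept 26.0% of the PADI4 WT cells and 98.4% of the others. It also leaves out PADI4 WT cells with both Xist and Y-linked UMIs, where doublets of both sexes would fall. Doublets were therefore not treated alike in the libraries. In cluster 6 this choice took Lgr5 from 29.4 to 8.81 CPM in the PADI4 WT library, but from 12.5 to 12.6 CPM in the other. The part of doublets and of sex in these values was not tested beyond these comparisons.

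R-spondins, the ligands of the LGR receptors, were nearly absent from the sorted epithelium. The epithelial cells held 24 and 22 UMIs of Rspo1, 1 and 0 of Rspo2, 8 and 9 of Rspo3, and 1 and 0 of Rspo4. Over the whole epithelium, 0 UMIs, with 3 UMIs taken as their limit, allow at most 0.023 CPM for Rspo2 and Rspo4 in the library labelled PADI4 cKO. The 50 fibroblast-like cells that came through the sort in the PADI4 WT library held 23 UMIs of Rspo1, 44 of Rspo2 and 39 of Rspo3, whereas the 27 such cells of the other library held 1, 0 and 6. The cluster of these cells had Smr3a, Dcpp3, Aqp5, Myog and Actc1 among its leading genes, which are not in the fibroblast list. It may therefore hold other cells than fibroblasts.

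The ligases that act with the LGR receptors were widely present. Znrf3 was at 494 and 581 CPM, with its highest PADI4 WT level in GL-like cluster 8 (860.3 CPM) and its highest level in the other library in cluster 15 (1002 CPM), where Lgr5, Lgr6 and Lrig1 were lowest. Rnf43 was at 111 and 119 CPM. The Wnt coreceptors Lrp5 (45.3 and 46.7 CPM) and Lrp6 (129 and 136 CPM) had their highest levels in ORS-like clusters 17 and 12. Of the Wnt targets and effectors, Axin2 was at 40.1 and 40.8 CPM with a peak in GL-like cluster 8 (109 and 114 CPM), and Lef1 was highest in cluster 15 (2157 and 2140.2 CPM). The highest levels of these targets thus lay outside the clusters with the most Lgr5.

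Of the 22 genes of the R-spondin and Wnt coreceptor list, 18 had enough UMIs, 0 were past 0.5 between the libraries, and their median log2 ratio was 0.03, from −0.21 to 0.49. The upper end was Sp5, a Wnt target, at 6.82 and 9.58 CPM with its peak in LPC-like cluster 14. The related receptor genes Rxfp1, Rxfp2, Lhcgr, Fshr and Tshr had too few UMIs to be compared.

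Among the genes tied to LRIG1, Lrig2 was at 28.9 and 28.3 CPM and Lrig3 at 80.6 and 81.2 CPM. Egfr, the receptor LRIG1 is best known to dampen, was at 469.7 and 471 CPM and was highest in cluster 15 (1409.9 and 1485 CPM), where Lrig1 was lowest. Of the 8 genes of this list 1 was past 0.5, where 5.15% of all genes tested were, and the median was 0.01. It was Erbb4, at 3.07 and 5.03 CPM with a log2 ratio of 0.72. Erbb4 was at 26.3 CPM in the empty droplets of both libraries, above its epithelial level, and 188 of its 390 and 328 of its 652 epithelial UMIs lay in LPC-like cluster 14, which held 301 and 395 cells. The receptor gene Ret was highest in cluster 18 (95.4 and 119 CPM).

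Genes whose levels over the 18 clusters were most like each member were named by the lower r of both libraries among 12299 genes, as a description over clusters of the same cells. For Lgr5 they were Cpxm1 (r of 0.98 and 0.94), Gnb1l, Ptprd, Pnp and Synpo. For Lrig1 they were Gm5860 (0.96 and 0.96), Sfxn3, Itgb8, Lima1 and Rbms3. For Lgr6 they were Zc3h7b (0.90 and 0.91), L3mbtl3, Nfix, Smoc2 and Cdca7l, and for Lgr4 Fryl (0.89 and 0.92), Cd46, Hoxa3, Enox2 and Ramp3. The likeness was closer for Lgr5 and Lrig1 than for the other members, and none of the 20 genes was named for more than 1 member.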

How the data were processed

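The authors deposited unnormalized whole-number counts (UMIs for each gene in every droplet, empty ones included). The processing notes name Cell Ranger, Scanpy and mm10, and whether intronic reads were counted is not given in the sources used here. Cells were droplets that held 2000 to 60000 UMIs from 1000 to 8000 genes, with up to 20% mitochondrial UMIs, up to 1% hemoglobin UMIs and a ribosomal share between the 5th and 99th percentile. Counts were clustered with scanpy 1.11.5 (1000 variable genes without the members, cell cycle, sex-linked and Padi genes, 50 components, 15 neighbors, Leiden resolution 1.0). A cluster was named from at least 3 markers that were 1.5-fold above other cells and at 5 CPM or more. The study's annotation was not used, and background removal was not run. Doublets were scored with Scrublet, and since its automatic threshold called 2 cells in the PADI4 WT library, the other library's threshold of 0.179 was used for both. Doublets were kept except where stated.

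Levels are summed CPM with exact Poisson intervals, ratios have exact conditional binomial intervals after 0.5 UMI was added, and odds ratios are Mantel-Haenszel estimates. Scripts were tested on simulated data. Named genes are the members, pathway and marker lists and the 5 genes most like each member. Ctgf and Krt85 of the marker lists are not in the gene list under these symbols. The members and lists were chosen with earlier results of these data known. Annotation was GRCm38 (32158 of 32285 identifiers matched).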

Additional observations from a re-analysis of the deposited data

Results flagged for a closer look

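Empty droplets, those with fewer than 100 UMIs, were not used in the comparisons above, and all 4 members were found in them. Lgr4 was at 208.7 CPM in the empty droplets of the PADI4 WT library (1272 UMIs) and at 218.9 CPM in those of the other library, labelled PADI4 cKO, (1689 UMIs). Lgr5 was at 138.6 CPM (845 UMIs) and 140.9 CPM (1087 UMIs). Lgr6 was at 112.7 CPM (687 UMIs) and 116.1 CPM (896 UMIs). Lrig1 was at 179.3 CPM (1093 UMIs) and 168.2 CPM (1298 UMIs). Each value lay above the limit that a count of 0 allows and below the level of the same gene over all epithelial cells. Lgr5 in the empty droplets was above its level in clusters 2, 6, 7, 8, 9, 10, 15, 19 and 20 of the same library. A level in empty droplets gives the make-up of free RNA, not the amount that free RNA adds to a cell. Free RNA was at most 8.42% and 7.53% of the epithelial UMIs, so this order does not show that the cluster levels are background.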

How the results depend on the processing

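No paired analysis was possible because each genotype has 1 library. Levels and odds ratios below are those of the PADI4 WT library. Of 28 alternatives to the library ratios, 21 moved by less than the counting interval. The exceptions were Xist-only cells, with 0.29 for Lgr4, 0.00832 for Lgr5, 0.37 for Lgr6 and 0.0653 for Lrig1, and the mean over clusters, with 0.17 for Lgr4, 0.0709 for Lgr5 and 0.0252 for Lrig1. Lrig1 was thus reversed in both. Every odds ratio of joint detection stayed above 1. With cells thinned to 2000 UMIs they were 1.80 (Lgr4 and Lgr5), 1.41 (Lgr4 and Lgr6), 1.75 (Lgr4 and Lrig1), 1.09 (Lgr5 and Lgr6), 2.72 (Lgr5 and Lrig1) and 2.88 (Lgr6 and Lrig1). With strata of cluster and depth, chosen after seeing the data, they were 1.83, 1.78, 1.60, 1.49, 3.46 and 2.003 in that order. With strata of cluster alone, Lgr4 and Lgr5 gave 2.65, Lgr4 and Lrig1 1.998, Lgr5 and Lrig1 4.10 and Lgr6 and Lrig1 2.27. Counting cells with at least 2 UMIs, also added later, gave 1.84 for Lgr4 and Lgr6 and 1.47 for Lgr5 and Lgr6, which without strata of depth was 2.13.

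The levels of Lgr4 in cluster 12, Lgr5 in cluster 1, Lgr6 in cluster 3 and Lrig1 in cluster 3 moved with the denominator and the clustering. Without mitochondrial and ribosomal protein genes they were 1270.3, 1036, 926 and 1281 CPM, and with free RNA subtracted 1086, 848, 760.0 and 1049 CPM. Clustered without doublets they were 922, 674, 420.3 and 1053 CPM. With at least 4000 UMIs per cell, Lgr4 was at 939, Lgr6 at 582 and Lrig1 at 878 CPM, and with at least 1000 UMIs Lgr5 was at 638 CPM. At resolution 0.5 Lgr6 was at 514 and Lrig1 at 1060.0 CPM, and at 2.0 Lgr5 was at 673 CPM. Under 1000 UMIs (clusters 12 and 3), 4000 UMIs (cluster 1) and resolution 0.5 (clusters 12 and 1) no new cluster held mostly these cells, and no value was given. Thinned to 2000 UMIs, the shares of positive cells in the 4 clusters were 84.7%, 69.4%, 67.5% and 81.1%, so at this depth a missing UMI does not show a missing transcript. The cause of these moves was not tested.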

Other observations

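Clusters with fewer than 50 cells in 1 of the libraries were left out of the comparisons. Cluster 4, led by the suprabasal keratin gene Krt1 and by Stfa1, held 215 PADI4 WT cells and 23 of the other library. Its PADI4 WT cells had Lrig1 at 373 CPM, Lgr6 at 162 CPM, Lgr4 at 157 CPM and Lgr5 at 22.6 CPM. Cluster 5, led by Krt6a, held 37 PADI4 WT cells with Lgr4 at 576 CPM, Lrig1 at 409 CPM, Lgr5 at 289 CPM and Lgr6 at 8.90 CPM. Cluster 16, led by Tlx1 and Krt13, held 45 PADI4 WT cells and 0 of the other library, with Lgr4 at 441 CPM, Lgr6 at 141 CPM, Lrig1 at 80.5 CPM and Lgr5 at 35.3 CPM. Fibroblast-like cells had Lgr5 at 61.8 CPM in the PADI4 WT library (50 cells) and 248.9 CPM in the other (27 cells).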
